A study of Mus musculus with 14 samples.

Results

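Immediate early genes are transcribed in response to growth factors, serum, depolarisation or stress without any need for new protein. Measured here were 10 of them, among the 35449 genes of the count tables: the 4 Fos family genes Fos, Fosb, Fosl1 and Fosl2, the 3 Jun family genes Jun, Junb and Jund, and the genes of 3 further nuclear factors, Egr1, Ier2 and Klf6. They were listed by name, as an AP-1 and EGR gene group, with no threshold on a measured value. Fos and Jun proteins form the dimeric transcription factor AP-1. Fos proteins need a Jun partner to bind DNA, whereas Jun proteins also pair with each other, and the pairs differ in how strongly they activate transcription. Egr1 is a zinc finger factor induced through ERK signalling and serum response factor, the same route that drives Fos.

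The libraries came from a mouse study of a knockout-first allele of H3f3a, one of the genes for histone H3.3. Primary lines were derived from E13.5 embryos (mid-gestation) and received no treatment. Neurospheres, floating cultures of neural stem and precursor cells, were grown from the head, and mouse embryonic fibroblasts (MEFs) from the body after the organs had been taken out. The 4 groups were WT MEFs (3 lines), KO MEFs (5 lines), WT neurospheres (3 lines) and KO neurospheres (3 lines), 14 libraries in all. The submitters describe the lines as independent. Each line was sequenced once, so n counts lines. No strain, sex, passage, culture medium or time since feeding is given in the labels used here, and a difference in medium or serum between MEFs and neurospheres cannot be told apart from the cell type. The libraries hold 3′ end reads of polyadenylated RNA, in which a read count does not grow with transcript length.

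Each library held between 1669406 and 3296178 reads assigned to genes, and levels are given as CPM, a library's reads per gene scaled to a common total. H3f3a fell from 847 to 1427 CPM in WT MEFs to 7.29 to 18.8 CPM in KO MEFs, and from 1970 to 2417 CPM in WT neurospheres to 26.3 to 70.9 CPM in KO neurospheres, so all 14 libraries matched their genotype label. The summed CPM of 10 fibroblast and mesenchyme markers lay between 14216 and 22511 in the MEF lines and between 42.4 and 169 in the neurosphere lines. Of 10 neural stem and precursor markers, 9 were called higher and 1, Vim, lower in neurospheres of both genotypes. Vim is abundant in fibroblasts too, and the summed CPM of the 10 overlapped between the cell types, at 3953 to 5080 in the MEF lines and 4684 to 9161 in the neurosphere lines. Olig2 was at 0 in both MEF groups and Sox1 in WT MEFs, and none of the 10 was at 0 in either neurosphere group. The summed CPM of 11 macrophage, microglia and blood markers was 59.2 to 180 in WT MEFs, 18.0 to 84.6 in KO MEFs and 0 to 2.48 in the neurosphere lines. The libraries are bulk RNA, in which fewer cells of a type and less RNA per cell cannot be told apart.

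The promoters of Fos, Fosb, Jun and Junb are shown because these are the textbook immediate early AP-1 genes, of which Jun alone was not called between the cell types. Each is the 250 bases before the RefSeq transcription start on GRCm38.p6, written 5′ to 3′ in the direction of transcription. Of the 10 genes, 7 have a sequence in the RefSeq promoter table, the exceptions being Fosl1, Egr1 and Ier2. Capitals mark the motifs found by a search of both strands.
Fos promoter, chr12:85473640-85473889, plus strand: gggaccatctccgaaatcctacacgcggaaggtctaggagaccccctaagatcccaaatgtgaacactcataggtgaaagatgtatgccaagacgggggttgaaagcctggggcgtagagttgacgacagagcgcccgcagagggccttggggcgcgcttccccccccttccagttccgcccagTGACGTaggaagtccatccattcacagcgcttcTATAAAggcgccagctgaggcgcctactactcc
Fosb promoter, chr7:19310046-19310295, minus strand: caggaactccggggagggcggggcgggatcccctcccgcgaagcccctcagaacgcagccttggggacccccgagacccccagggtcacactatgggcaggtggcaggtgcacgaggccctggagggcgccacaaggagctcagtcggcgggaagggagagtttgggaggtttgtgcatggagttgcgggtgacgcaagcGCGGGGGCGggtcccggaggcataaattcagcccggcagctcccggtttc
Jun promoter, chr4:95052223-95052472, minus strand: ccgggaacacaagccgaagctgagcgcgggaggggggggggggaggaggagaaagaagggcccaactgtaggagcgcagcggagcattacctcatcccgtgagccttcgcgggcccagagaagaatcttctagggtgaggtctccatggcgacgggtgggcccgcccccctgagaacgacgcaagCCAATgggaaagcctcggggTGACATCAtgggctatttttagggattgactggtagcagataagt
Junb promoter, chr8:84978749-84978998, minus strand: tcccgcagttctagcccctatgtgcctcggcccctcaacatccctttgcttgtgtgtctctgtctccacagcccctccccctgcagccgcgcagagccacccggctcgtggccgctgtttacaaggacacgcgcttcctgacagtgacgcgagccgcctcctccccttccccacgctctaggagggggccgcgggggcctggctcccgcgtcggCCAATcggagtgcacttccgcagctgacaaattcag
Among the letters searched, TGACGT, the core of a cyclic AMP response element, lay 66 bases before the start of Fos, and the TATA box TATAAA lay 33 bases before it. Jun held TGACNTCA, a site of the AP-1 and ATF type, 45 bases and a CCAAT box 65 bases before its start. Fosb held the EGR element GCGNGGGCG 50 bases before its start, and Junb a CCAAT box 36 bases before its start. These are common motifs. TGACGT occurred in 6.47% of 32851 mouse promoters of the same length, TGACNTCA in 7.49%, GCGNGGGCG in 4.70%, TATAAA in 12.4% and CCAAT in 33.8%. The AP-1 element TGANTCA (6.75% of promoters) and the CArG box of serum response factor (1.47%) had no match in these windows in any of the 7 genes. Sequence beyond the 250 bases was not searched, so sites further from the start would be missed. Of the 3 genes with a promoter that is not shown, Klf6 held TGACNTCA and CCAAT, Fosl2 held GCGNGGGCG and Jund held none of the motifs. The RefSeq start lies 671 bases from the GENCODE start for Fosl2 and 1210 bases from it for Jund. Their windows may therefore not be those before the start of the counted transcripts.

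Between the cell types the Fos family differed in both directions. Neurospheres carried more Fos and less Fosl1 and Fosl2 than MEFs, and they did so in the WT lines and again in the KO lines, which share no library with the WT lines. In WT neurospheres against WT MEFs, edgeR's quasi-likelihood test called 7 of the 10 genes at a Benjamini-Hochberg adjusted p under 0.05, with 3 higher and 4 lower in neurospheres. Over all genes tested, 41.6% were called, 20.8% higher and 20.8% lower. In KO neurospheres against KO MEFs, 8 of 10 were called, 4 higher and 4 lower, beside 51.6% of all genes (25.4% higher and 26.2% lower). Fosl1 did not pass the filter on low counts within neurospheres, nor Fosb within MEFs, so each entered these tests through the cell type where it was high. The group of 10 was not tested as a whole against other genes, and what follows describes each gene. The log2 differences of all 10 had a median of 0.18 in the WT lines, beside 0.02 over all genes, and -0.14 in the KO lines, beside -0.01.

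**Figure D1:**
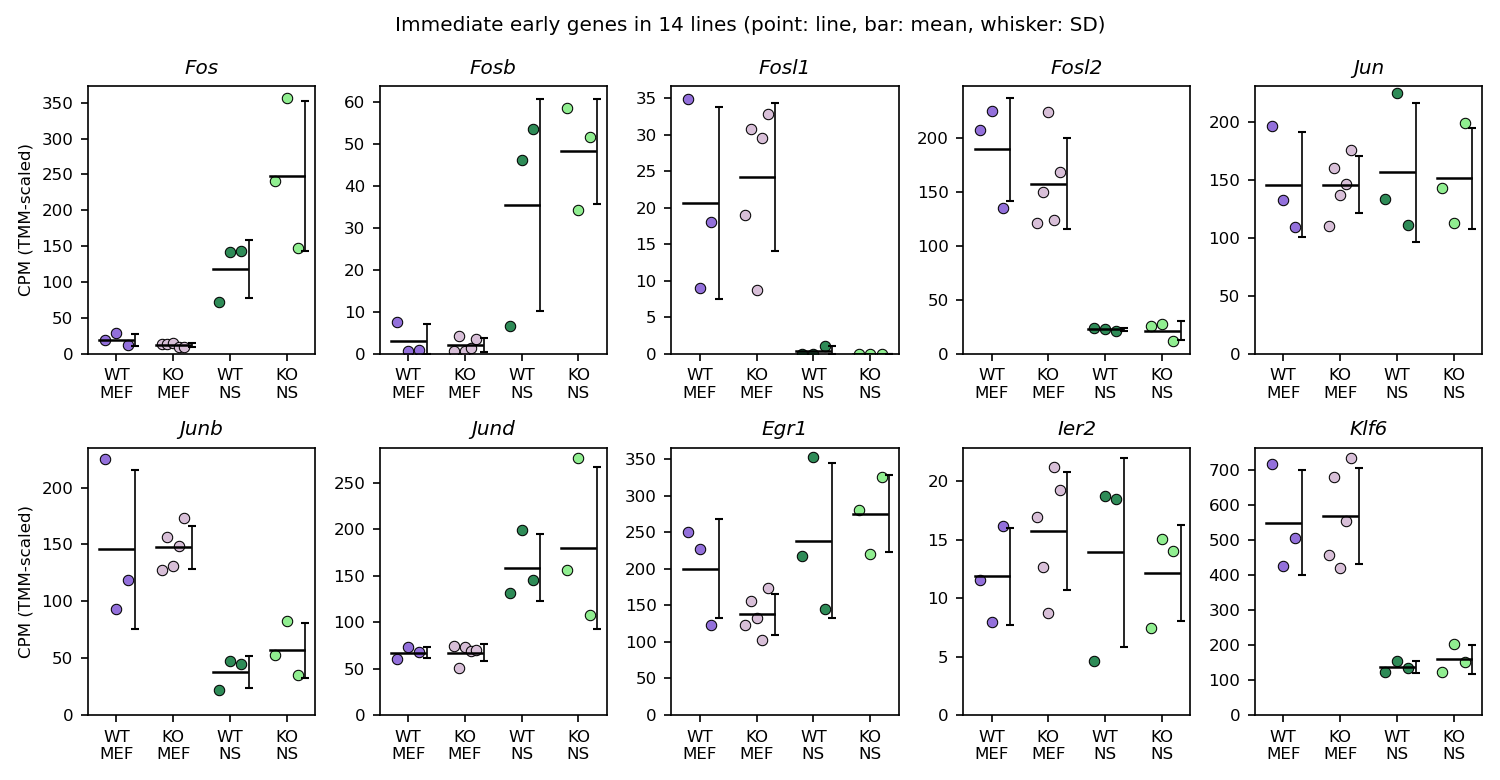
Level of each of the 10 genes in CPM (linear axes from 0, TMM-scaled), with 1 point for each line, a bar for the group mean and a whisker for the SD, in WT and KO MEFs and WT and KO neurospheres (NS). Fos and Jund were higher, and Fosl1, Fosl2, Junb and Klf6 lower, in every neurosphere line than in any MEF line.

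Fos, the founding member of the family, encodes an unstable protein whose mRNA decays within a short time of induction. The gene lies at chr12:85473890-85477273 on the plus strand of GRCm38. Its level was 18.3, 28.1 and 11.3 CPM in WT MEFs 1 to 3, and 13.1, 13.4, 14.6, 8.67 and 9.06 CPM in KO MEFs 1 to 5. In WT neurospheres 1 to 3 it was 71.2, 141 and 143 CPM, and in KO neurospheres 1 to 3 it was 241, 356 and 147 CPM. Every neurosphere line was thus above every MEF line, and every KO neurosphere line above every WT neurosphere line. Fos was 6.28-fold higher in WT neurospheres than in WT MEFs (log2 difference 2.65, SE 0.42, edgeR adjusted p = 0.00233). In the KO lines it was 21.4-fold higher (log2 difference 4.42, SE 0.31, edgeR adjusted p = 4.42e-06).

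Fosl1 and Fosl2 encode Fra-1 and Fra-2, Fos relatives that lack the strong activation domain of Fos and are typical of adherent mesenchymal cells. Fosl2 (chr5:32135801-32157842, plus strand) was at 208, 225 and 135 CPM in the WT MEF lines and at 121, 150, 224, 124 and 169 CPM in the KO MEF lines. It was at 24.1, 22.4 and 21.0 CPM in the WT and at 25.6, 27.1 and 11.2 CPM in the KO neurosphere lines, so no neurosphere line came near a MEF line. Fosl2 was 8.26-fold lower in WT neurospheres (log2 difference -3.05, SE 0.26, edgeR adjusted p = 0.000198) and 7.36-fold lower in KO neurospheres (log2 difference -2.88, SE 0.35, edgeR adjusted p = 0.000136) than in the MEFs of the same genotype. Fosl1 (chr19:5447547-5455946, plus strand) was close to absent from neurospheres. It was at 34.9, 8.99 and 18.0 CPM in WT MEFs and at 19.0, 30.8, 8.74, 29.5 and 32.8 CPM in KO MEFs. Its only counts in neurospheres were 3, all in WT neurospheres 3 (1.07 CPM). Pooled over lines, the 172 counts of WT MEFs against those 3 gave a ratio of 50.6, with an exact 95% interval of 17.0 to 248 that covers counting error only, and edgeR called the gene (adjusted p = 0.00362). In KO neurospheres no Fosl1 read was counted, against 335 in KO MEFs, which puts the gene at least 55.9-fold lower with a floor of 3 counts over the group. The gene Ccdc85b overlaps the end of Fosl1 on the opposite strand. The kit keeps the strand of the RNA, but whether the counting used it is not given in the sources used here, so reads of overlapping opposite genes may not be told apart.

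Fosb encodes another strongly activating Fos protein, known in neurons for a stable spliced form. The gene lies at chr7:19302696-19310051 on the minus strand. Its level was 7.54, 0.719 and 0.915 CPM in WT MEFs and 0.691, 4.11, 0.486, 1.39 and 3.40 CPM in KO MEFs. It was 6.51, 46.2 and 53.7 CPM in WT neurospheres and 58.7, 34.3 and 51.8 CPM in KO neurospheres. WT neurospheres 1 lay below WT MEFs 1, and the other 5 neurosphere lines lay above all MEF lines. The neurospheres had the higher level in the WT lines (log2 difference 3.60, SE 1.05, edgeR adjusted p = 0.0291) and in the KO lines (log2 difference 4.54, SE 0.50, edgeR adjusted p = 7.1e-05). These calls rest on 1 transcript record.

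That record, Fosb-204, is annotated as a retained intron. It is a single exon at chr7:19306416-19310044, it stops short of the 3′ end of the gene, and it held 89.9% of Fosb reads in WT neurospheres, 89.3% in KO neurospheres, 30.4% in KO MEFs and 0% in WT MEFs. Without it, Fosb averaged 3.65 ± 2.18 CPM in the WT and 4.65 ± 4.09 CPM in the KO neurospheres (SD, n = 3 each), against 3.06 ± 3.88 CPM (WT, n = 3) and 1.42 ± 0.99 CPM (KO, n = 5) in MEFs. Neither cell type call then remained. The log2 difference was 0.31 in the WT lines (edgeR adjusted p = 0.819) and 1.70 in the KO lines (edgeR adjusted p = 0.118). The kit primes on runs of A. The most A in any stretch of 20 bases of Fosb-204 was 16, reached by 2 windows. The first is shown because it lies inside the record and not at the end of the gene (A in capitals).
Fosb-204, intron 1 of Fosb-201, chr7:19308949-19308968, minus strand: gAAgAAAAAgAAAcAAAAAA
The spliced transcript Fosb-201 also held a stretch of the same length with 15 A. Read positions are not part of the count tables, and whether priming inside the intron contributed was not tested.

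**Figure D2:**
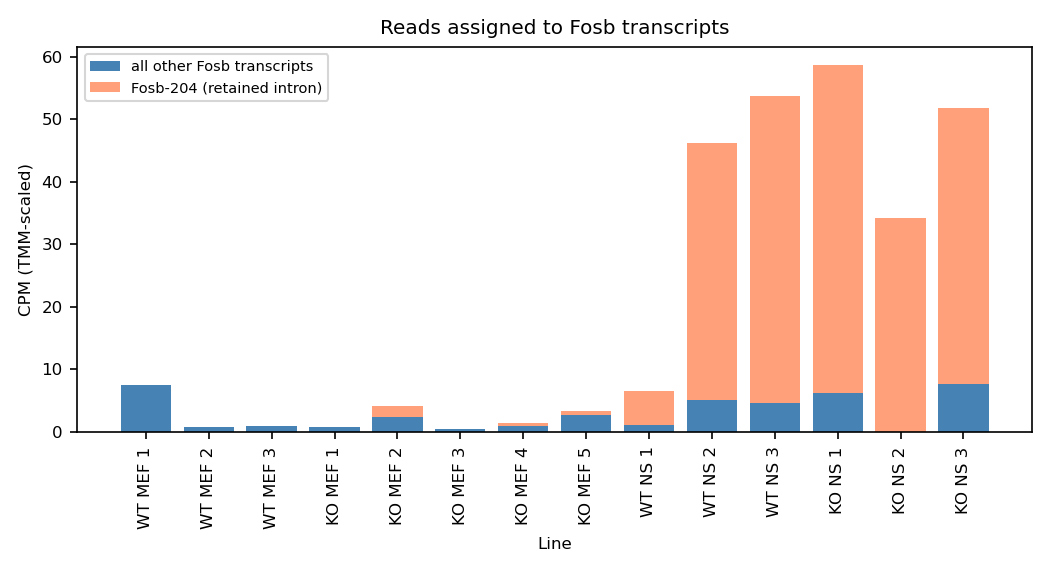
Reads assigned to Fosb in CPM (linear axis from 0) for each of the 14 lines, split into the retained-intron record Fosb-204 and all other Fosb transcripts. In the neurosphere lines most of each bar belongs to Fosb-204, and the other transcripts stay below 8 CPM in every line.

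Per unit of transcript length, in TPM (transcripts scaled to a common library total), Fos made up 19.0% ± 8.37 of the Fos family in WT MEFs (SD, n = 3) and 14.3% ± 3.14 in KO MEFs (n = 5). It made up 82.8% ± 2.32 in WT neurospheres and 87.7% ± 5.40 in KO neurospheres (n = 3 each). Fosl2 was the largest part of the family in both MEF groups on average, with 46.0% of the TPM in WT and 41.7% in KO lines, against 4.24% and 1.80% in the neurospheres. Fosl1 held 32.7% and 41.4% in WT and KO MEFs. In WT MEFs 2 and KO MEFs 3 the Fosl1 share was lowest, at 15.8% and 17.4%. By read count, which does not divide by length, Fosl2 held 81.6% of the family in WT MEFs and Fosl1 9.09%. In KO MEFs they held 79.9% and 13.0%. Counts of 3′ end reads do not grow with length, so TPM understates Fosl2, whose main transcript is long (6537 bases, against 1864 for Fosl1). The read shares, not the TPM shares, describe the balance of these 2 genes in MEFs. Fos led in neurospheres on both scales (67.5% of WT and 76.5% of KO counts). In MEFs Fos held 8.09% ± 2.23 of the family's reads in WT lines (SD, n = 3) and 6.13% ± 1.61 in KO lines (n = 5), below its TPM shares. Summed over its 4 genes, the family reached 232 ± 57.9 CPM (WT lines) and 196 ± 38.4 CPM (KO lines) in MEFs. In neurospheres the sum was 177 ± 64.9 CPM (WT lines) and 317 ± 104 CPM (KO lines).

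**Figure D3:**
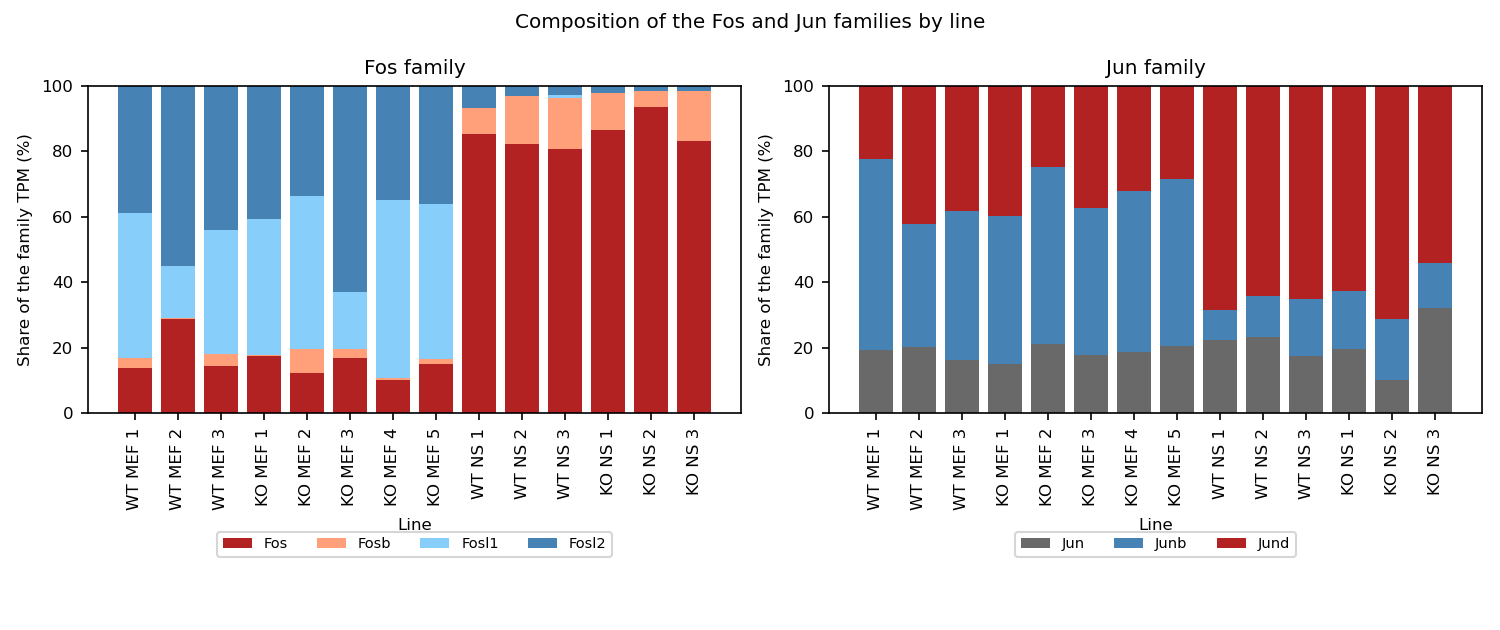
Share of each gene in the summed TPM of its family (percent, stacked to 100) in each of the 14 lines, for the Fos family and the Jun family. TPM understates Fosl2, which held 81.6% of the Fos family reads in WT MEFs. Fos fills over 80% of the Fos family TPM in every neurosphere line (65.3 to 85.3% by read count). Jund is the largest part of the Jun family in every neurosphere line on this per-length scale (by read count Jun exceeds Jund in 3 of the 6). Jun itself averages 18.6% of its family in both MEF groups, 21.1% in WT and 20.5% in KO neurospheres.

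In the Jun family, Junb was lower and Jund higher in neurospheres, and Jun was not called. Jun (chr4:95049034-95052222, minus strand), the strongest activator of the 3, was at 196, 133 and 109 CPM in WT MEFs and at 110, 161, 137, 146 and 175 CPM in KO MEFs. It was at 134, 225 and 111 CPM in WT and at 143, 112 and 199 CPM in KO neurospheres. All 4 groups overlapped. The log2 difference between the cell types was 0.12 (95% interval -0.65 to 0.90, edgeR adjusted p = 0.786) in the WT lines and 0.08 (-0.42 to 0.57, edgeR adjusted p = 0.795) in the KO lines. The intervals show the differences that these lines leave possible, and the smallest detectable difference was not worked out.

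Junb, a Jun protein that can restrain Jun activity and proliferation, was lower in neurospheres. The gene lies at chr8:84974484-84978718 on the minus strand. Its level was 225, 93.5 and 119 CPM in WT MEFs and 128, 157, 131, 149 and 173 CPM in KO MEFs, against 21.8, 47.2 and 44.4 CPM in WT neurospheres and 52.5, 83.0 and 35.0 CPM in KO neurospheres. The cell types did not overlap in either genotype. Junb was lower by 3.79-fold in the WT lines (log2 difference -1.92, SE 0.43, edgeR adjusted p = 0.00984) and 2.57-fold in the KO lines (log2 difference -1.36, SE 0.27, edgeR adjusted p = 0.00233). Prdx2, on the opposite strand with 6447 reads over the 14 libraries, overlaps the annotated gene only at Junb-202, a transcript with 1 read. The other 3848 Junb reads were assigned to Junb-201 (chr8:84976910-84978718), which does not reach Prdx2 (end at 84974834).

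Jund, the family member known for steady expression in resting cells, went the other way. The gene (chr8:70698949-70700616, plus strand) was at 60.7, 73.4 and 67.7 CPM in WT MEFs and at 74.6, 50.7, 72.9, 68.7 and 69.4 CPM in KO MEFs. In neurospheres it was at 132, 199 and 145 CPM in the WT lines and at 156, 277 and 107 CPM in the KO lines, above every MEF line. Jund was 2.40-fold higher in WT neurospheres (log2 difference 1.26, SE 0.23, edgeR adjusted p = 0.00402) and 2.71-fold higher in KO neurospheres (log2 difference 1.44, SE 0.28, edgeR adjusted p = 0.00205). Per transcript length, Jund made up 34.2% of the Jun family in WT MEFs and 66.0% in WT neurospheres, and Junb 47.2% and 13.0%. As shares of the family's reads, Jund made up 20.01% and 45.5%, Junb 39.4% and 10.8%, and Jun 40.6% and 43.7%. On both scales Jund's mean share was higher and Junb's lower in neurospheres, whereas the gene with the largest mean share in WT MEFs was Junb per length and Jun by reads. The 3 genes together stood at 359 ± 107 CPM (WT, n = 3) and 361 ± 39.1 CPM (KO, n = 5) in MEFs. They stood at 353 ± 102 CPM (WT) and 388 ± 72.7 CPM (KO, SD, n = 3 each) in neurospheres, so the family total differed by less than the spread between lines.

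Of the 3 factors outside AP-1, Klf6 was lower in neurospheres, Ier2 was not called, and Egr1 was called in the KO lines only. Klf6 (chr13:5861482-5870394, plus strand), a Krüppel-like zinc finger factor of growth control and wound responses, was at 716, 425 and 507 CPM in WT MEFs and at 457, 681, 419, 555 and 734 CPM in KO MEFs. It was at 122, 155 and 134 CPM in WT and at 123, 203.8 and 151 CPM in KO neurospheres, again without overlap. The difference was 3.95-fold in the WT lines (log2 difference -1.98, SE 0.25, edgeR adjusted p = 0.000931) and 3.53-fold in the KO lines (log2 difference -1.82, SE 0.26, edgeR adjusted p = 0.000333).

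Egr1 (chr18:34859823-34864984, plus strand) is read as a sign of ERK activity in many tissues. It was at 250, 227 and 123 CPM in WT MEFs and at 124, 156, 133, 102 and 173 CPM in KO MEFs. In neurospheres it was at 217, 353 and 145 CPM in the WT and at 280, 220 and 326 CPM in the KO lines. The WT groups overlapped (log2 difference 0.28, 95% interval -0.63 to 1.19, edgeR adjusted p = 0.593), and every KO neurosphere line was above every KO MEF line (log2 difference 1.02, SE 0.20, edgeR adjusted p = 0.00233). The difference between these 2 contrasts was itself not called (interaction 0.75 on the log2 scale, 95% interval -0.19 to 1.69, edgeR adjusted p = 1.00). Ier2 (chr8:84661331-84662852, minus strand), a small nuclear protein induced early by growth factors, ranged from 7.91 to 21.2 CPM over the MEF lines and from 4.60 to 18.7 CPM over the neurosphere lines. Its log2 difference between the cell types was 0.24 (95% interval -1.03 to 1.52) in the WT lines and -0.36 (-1.17 to 0.44) in the KO lines.

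**Figure D4:**
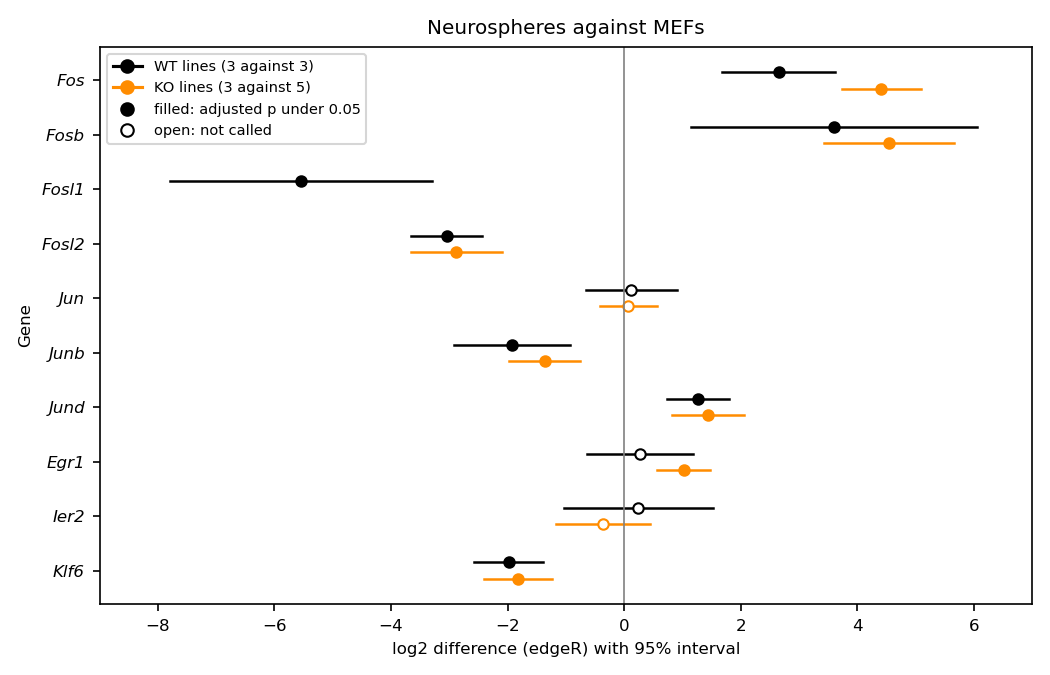
Log2 difference between neurospheres and MEFs for each gene (points, edgeR) with its 95% interval (lines), in WT lines (3 against 3) and KO lines (3 against 5), with filled points where the adjusted p was under 0.05. Fosl1 in the KO lines is not drawn, because KO neurospheres had no Fosl1 read, and Jun lies at 0.12 and 0.08 with both intervals across 0.

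Counting lines, 2 genes were higher (Fos and Jund) and 4 lower (Fosl1, Fosl2, Junb and Klf6) in every WT neurosphere line than in every WT MEF line, beside 57.1% of all genes with no overlap between these groups. In the KO lines 4 were higher, the same 2 with Fosb and Egr1, and the same 4 lower, beside 49.8% of all genes. In the order of the group means, the groups of the same cell type stood next to each other for every gene but Ier2. For Fos the 2 neurosphere groups were also apart from each other, whereas for Fosb, Jun, Egr1 and Ier2 each group overlapped its neighbour in that order.

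Loss of H3f3a was followed by no called change in any of these genes. In KO against WT MEFs, 9 of the 10 genes passed the filter on low counts, all but Fosb, and edgeR called 0 of them, beside 0.00927% of all genes (1 of 10785). None of the 9 had an unadjusted p under 0.05, DESeq2 also called 0, and 175 genes in all had an unadjusted p under 0.05. No gene of the 9 separated the KO from the WT lines, beside 1.85% of all genes. Their median log2 difference was -0.0033, beside -0.0013 over all genes tested.

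Fos and Egr1 had the smallest p-values of the 9 in MEFs. Fos averaged 11.8 ± 2.70 CPM in KO MEFs (SD, n = 5) and 19.2 ± 8.42 in WT MEFs (n = 3), a log2 difference of -0.71 (95% interval -1.44 to 0.02, edgeR unadjusted p = 0.056, adjusted p = 1.00). Without WT MEFs 2, which had the highest Fos level of the 8 MEF lines, it was -0.32. That line also had the highest summed level of the macrophage, microglia and blood markers, 180 CPM beside 18.0 to 84.6 CPM in the other 7 MEF lines, and their part in the Fos value was not tested. Egr1 averaged 138 ± 27.7 CPM in KO and 200 ± 68.0 in WT MEFs, a log2 difference of -0.54 (95% interval -1.09 to 0.01, edgeR unadjusted p = 0.0525, adjusted p = 1.00), which was -0.35 without WT MEFs 1. For Jund the estimate was the tightest, with a log2 difference of -0.0043 and a 95% interval of -0.37 to 0.37.

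In KO against WT neurospheres, 9 genes passed the filter, all but Fosl1, and edgeR again called 0, beside 0.00941% of all genes (1 of 10624). DESeq2 called 0 of the 9 and 7 of all genes. Only Fos had an unadjusted p under 0.05, among 227 such genes in all. Fos averaged 248 ± 105 CPM in KO and 118 ± 40.8 in WT neurospheres (SD, n = 3 each), 2.10-fold higher, with a log2 difference of 1.07 (SE 0.39, 95% interval 0.17 to 1.97, edgeR unadjusted p = 0.0251, adjusted p = 0.999). It was the only one of the 9 with every KO line above every WT line, beside 7.20% of all genes with no overlap in either direction. The margin was narrow, 147 against 143 CPM. The difference was 0.71 without KO neurospheres 2 and 1.33 without KO neurospheres 3, and edgeR's adjusted p ranged from 0.782 to 1.00 when each line was left out in turn.

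KO neurospheres 2 had the highest level of Fos, Fosl2, Junb, Jund and Klf6 of the 6 neurosphere lines. It was also the library with the fewest reads, 1669406, and with the highest summed level of 5 astrocyte markers, 3675 CPM beside 1880 to 2914 CPM in the other 5 neurosphere lines. WT neurospheres 1 had the lowest level of Fos, Fosb, Junb, Ier2 and Klf6 among the 6. With both lines left out, an alternative chosen after seeing the data, the log2 difference of Fos was 0.46. The part of depth or of the astrocyte marker genes in these values was not tested, and the marker sum was not shown to measure astrocyte content. Among the other genes the KO to WT log2 differences in neurospheres lay between -0.19 for Ier2 and 0.59 for Junb (95% interval -0.34 to 1.52), with a median over the 9 genes of 0.22, beside 0.01 over all genes tested.

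**Figure D5:**
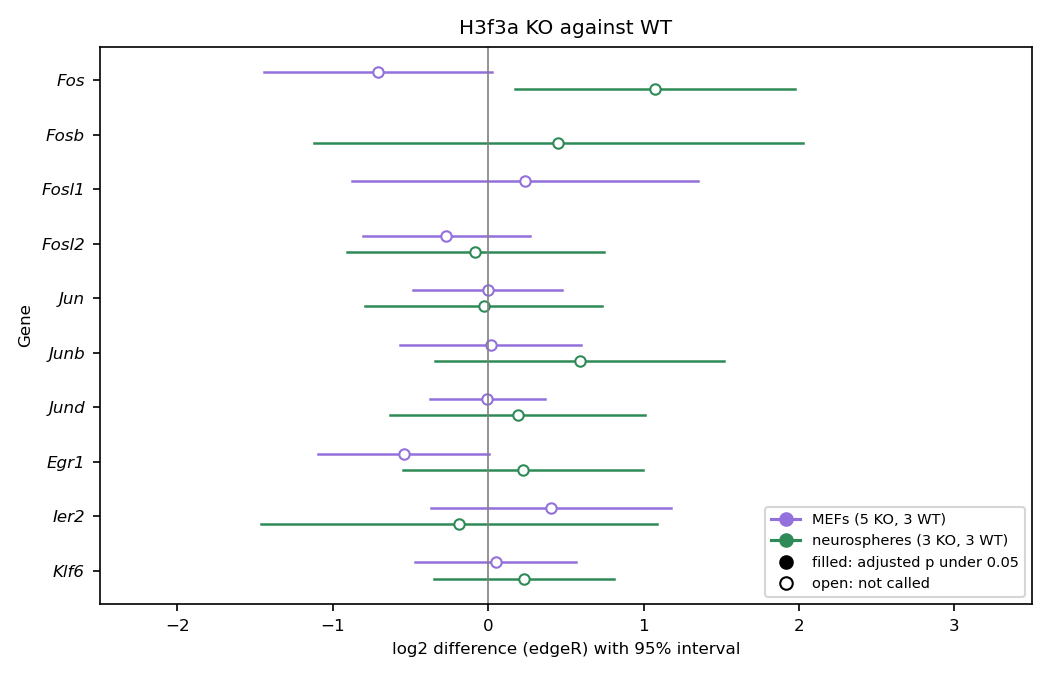
Log2 difference of KO from WT lines for each gene (points, edgeR) with its 95% interval (lines), in MEFs (5 KO and 3 WT lines) and neurospheres (3 and 3). All points are open because no adjusted p was under 0.05. Fosb in MEFs and Fosl1 in neurospheres did not pass the filter on low counts and have no point, and the interval of Fos in neurospheres lies above 0.

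Whether the KO difference was unlike in the 2 cell types was tested with an interaction term over all 14 libraries. edgeR called 0 of the 10 genes, beside 0% of 12113 genes tested, and DESeq2 called 0 of the 10 and 3 of all genes. Of the 10, Fos alone had an unadjusted p under 0.05, among 366 such genes. Its KO to WT difference was 1.77 higher in neurospheres than in MEFs on the log2 scale (SE 0.52, 95% interval 0.66 to 2.88, edgeR unadjusted p = 0.00416, adjusted p = 1.00), and 1.40 to 2.04 when each line was left out in turn.

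The other genes of the pathway were taken from lists assembled for this question, none of which had a called gene in KO against WT of either cell type or in the interaction. Of the other immediate early genes, more were called lower than higher in neurospheres. Of 31 tested, out of 37 listed, 15 were lower and 3 higher in WT neurospheres, beside 20.8% of all genes in each direction, with a median log2 difference of -1.46 beside 0.02 over all genes. In the KO lines 16 were lower and 4 higher, beside 26.2% and 25.4% of all genes, with a median of -1.43 beside -0.01. Only 26 of the 37 passed the filter within the neurosphere lines. Ccn1, Ccn2, Ptgs2, Csrnp1 and Sik1 did not, so they entered these tests through the MEFs and could only be called lower or not at all. The counts of lower genes are therefore partly set by the filter. The lower genes included the secreted matricellular genes Ccn1 and Ccn2, which respond to cell stretch and YAP. Ccn1 went from 545 ± 233 CPM in WT MEFs to 3.19 ± 2.42 in WT neurospheres (SD, n = 3 each), and Ccn2 from 2008 ± 978 to 0.119 ± 0.205. Ptgs2, the inducible cyclooxygenase, went from 474 ± 569 to 0.246 ± 0.214 CPM and Klf2 from 86.8 ± 68.0 to 5.44 ± 4.12 CPM. The 3 higher genes were Per1, a clock gene (5.44 ± 1.05 to 14.7 ± 2.75 CPM), Zfp36l1, an mRNA decay factor (169 ± 36.5 to 413 ± 209 CPM), and Klf10 (39.2 ± 15.7 to 77.7 ± 13.1 CPM).

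Upstream of these genes, serum response factor itself, Srf, was lower in neurospheres. It had 7.25 ± 3.14 CPM in WT MEFs and 0.720 ± 0.936 in WT neurospheres (log2 difference -3.12, SE 0.83). In the KO lines it had 7.08 ± 4.60 and 0.688 ± 0.327 CPM (-3.22, SE 0.79). Srf was near the floor, with 6 counts in all in WT and 5 in KO neurospheres, and did not pass the filter within the neurosphere lines. Its ternary complex partners split, Elk3 being lower (log2 difference -1.29) and Elk1 higher (0.99) in WT neurospheres. Of 16 upstream factors tested, 5 were higher and 3 lower in the WT lines (median log2 difference -0.0028), and 4 higher and 3 lower in the KO lines (median 0.18), shares near the 41.6% and 51.6% called over all genes. The kinase gene Rps6ka5, which acts on chromatin at immediate early genes, was higher in both, at 29.5 ± 5.16 CPM in WT neurospheres and 11.5 ± 4.60 in WT MEFs. Among the AP-1 partners and antagonists, 1 of 11 was higher (Atf7, log2 difference 1.03) and 3 lower in WT neurospheres, beside 41.6% of all genes called, with a median of 0.02. The lower ones were Jdp2, a repressor that pairs with Jun (99.0 ± 25.5 to 20.2 ± 5.60 CPM), Mafk, and Nab1, a corepressor of Egr1 (log2 difference -0.79). Mafk did not pass the filter within the neurosphere lines. In the KO lines 2 were higher and 3 lower, beside 51.6%, with a median of 0.27.

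ERK feedback genes, which are induced by the same signalling and damp it, were 3 higher and 1 lower of 11 in WT neurospheres (median log2 difference 0.61), and 3 higher and 2 lower in KO neurospheres (median 0.74). Over all genes 41.6% and 51.6% were called, with medians of 0.02 and -0.01, so the share of feedback genes called was no higher than the background. Etv5 went from 17.0 ± 5.83 CPM in WT MEFs to 225 ± 101 in WT neurospheres, Spry2 from 73.1 ± 32.8 to 200.8 ± 46.8 and Spred1 from 122 ± 5.53 to 320 ± 68.0, whereas Errfi1, a feedback inhibitor of the EGF receptor, went from 88.4 ± 77.2 to 6.96 ± 2.55 CPM. Genes known as AP-1 targets in fibroblasts were called lower or not at all. In WT neurospheres 9 of 12 tested were lower and 0 higher, and in KO neurospheres 13 of 15 were lower and 0 higher, beside 20.8% and 26.2% of all genes called lower. Of the 19 listed, 7 in the WT and 4 in the KO lines did not pass the filter. Only 5 of the 19 passed it within the neurosphere lines. Most of those tested between the cell types thus entered through the MEFs and could only be called lower or not at all. The median log2 difference was -5.57 in the WT and -6.17 in the KO lines as fitted, and -5.46 and -5.67 with the genes that had no read in neurospheres set at their bound. The chemokine gene Ccl2 went from 106 ± 59.1 CPM in WT MEFs (SD, n = 3) to no read in WT neurospheres, at least 267-fold lower with a floor of 3 counts over the group. Many of these are also fibroblast genes, and their link to the levels of the Fos family was not tested.

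Heat shock genes, often induced together with immediate early genes when tissue is handled, were lower in neurospheres for 10 of 12 in both genotypes, beside 20.8% and 26.2% of all genes, with a median log2 difference of -1.29 in the WT and -1.35 in the KO lines. Of these, Hspa1a and Hspb1 did not pass the filter within the neurosphere lines and entered through the MEFs. Hspa1b, an inducible heat shock gene, was at 67.6 ± 18.3 CPM in WT MEFs and 6.63 ± 2.33 in WT neurospheres. The summed level of the 12 genes was 5386 CPM in WT MEFs 2 and 5488 CPM in KO MEFs 3, below the 7913 to 9254 CPM of the other 6 MEF lines. Over the neurosphere lines it was 3205 to 4601 CPM, lowest in KO neurospheres 2. The sum weighs abundant genes such as Hsp90aa1 (700 ± 185 CPM in WT neurospheres) far above Hspa1b. Whether handling had a part in the levels of Fos or of the heat shock genes was not tested.

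Spread between lines of the same group differed among the 10 genes. The pooled SD of log2 CPM was highest for Fosb, at 1.12, above that of 94.0% of the 12113 genes. It was 0.72 for Fosl1, 0.65 for Ier2, 0.52 for Fos and 0.50 for Junb. Klf6 varied least, with 0.33, below the median of 0.44 over all genes, as did Jund (0.37), Jun (0.39) and Fosl2 (0.42). Egr1, at 0.44, lay at that median. For Jund the SD was 0.20 among MEF lines and 0.53 among neurosphere lines. Counting error is part of these SDs, and the comparison with all genes was not matched for level. Fosb had 1 to 19 counts in each MEF line and Ier2 12 to 61 counts in each line, against 297 to 1987 for Klf6. Fosl1 had no count in any neurosphere line but WT neurospheres 3. The order of the genes can therefore not be read as a difference in biological spread.

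The 10 genes did not move as 1 unit from line to line. After removal of the 4 group means, 32 of the 45 pairs had a positive Pearson r over the 14 lines, 14 had r above 0.5, and the median was 0.19, with a range of -0.49 to 0.85. Jun and Egr1 were the closest pair, with r = 0.85 over all lines, 0.74 over the 8 MEF lines and 0.95 over the 6 neurosphere lines. In WT neurospheres 2 both were at their highest neurosphere value, 225 CPM for Jun and 353 CPM for Egr1, and in WT neurospheres 3 both were at their lowest, 111 and 145 CPM. Fos did not follow them, with r = 0.13 to Egr1 (0.57 in MEFs and -0.27 in neurospheres). Over all lines its highest r was to Fosl2 (0.62) and Jund (0.59, with 0.04 in MEFs and 0.85 in neurospheres). Within the cell types it had r = 0.99 to Junb in neurospheres but -0.32 in MEFs (0.43 over all lines), and r = -0.87 to Ier2 in MEFs but 0.61 in neurospheres (0.03 over all lines). Junb and Klf6 formed another pair (r = 0.72, with 0.85 in MEFs and 0.65 in neurospheres). These correlations share the libraries and the scaling of each line and are given as descriptions.

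Among 6901 further genes with a mean of at least 20 CPM, the 8 most like the mean of the 8 genes tested in both cell types, over the same 14 centred values, were Tulp4 (r = 0.89), Uchl1 (0.88), Sidt2 (0.86), Ccn1 (0.84), Ppp2r2a (0.84), Smad7 (0.82), Ywhaz (0.82) and Sgms2 (0.82). Of these 8, Ccn1 was already on the list of other immediate early genes. The selection was not stable, since between 1 (without WT neurospheres 1) and 8 of the 8 stayed among the first 8 when a line was left out.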

How the data were processed

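QuantSeq 3′ FWD libraries of total RNA from 14 mouse lines were used, 3 WT MEF, 5 KO MEF, 3 WT neurosphere and 3 KO neurosphere lines, grouped by the labels. The authors quantified each library per transcript with Salmon 1.1.0, per the submitters' processing notes, which also name edgeR. The deposited values were the estimated counts and the TPM that Salmon writes, and no aligner setting or genome build is given in the sources used here. TPM divides by effective transcript length, which 3′ end reads do not need, so that the deposited TPM understates long transcripts.

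Transcripts were summed to genes with the GENCODE M21 annotation (GRCm38). Of 116945 transcripts in each file, 115945 matched, and the other 1000 held 0.251 to 0.425% of reads. Estimated counts were rounded per gene. Library totals were 1669406 to 3296178 counts, which limits the precision of genes with few counts. CPM used TMM factors over all 14 libraries, and genes below edgeR's default filter were left out of each test. Each comparison used edgeR 4.0.16 (R 4.3.3) robust quasi-likelihood fits of the groups concerned, with Benjamini-Hochberg adjustment over all genes tested and a threshold of 0.05. SEs were derived from the F statistic. Fits were tested on simulated data. Alternatives were DESeq2 1.42.0, other size factors and filters, limma 3.58.1 on log2(TPM + 1), all libraries in 1 fit, a replicate block, and lines left out. Sequences came from the RefSeq promoter table (GRCm38.p6) and from GRCm38.

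The 10 genes, the lists and the markers were chosen with earlier results of these data known. All 10 genes are named. From each other list, the genes named were among the 4 with the largest log2 difference called in each direction of a comparison and averaging 5 CPM or more where they were higher. The genes most alike were the 8 with the highest r at a mean of at least 20 CPM. Of the listed genes, Mkl1 was not matched to a symbol.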

Additional observations from a re-analysis of the deposited data

Results flagged for a closer look

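Jund in KO MEFs 2 stood apart from the other lines of its group. It was at 50.7 CPM, against 68.7 to 74.6 CPM in the other 4 KO MEF lines, a gap of 0.754 of the whole range of the group, above the critical value of 0.710 for 5 lines. The KO MEFs were the only group with enough lines for this comparison, which was made for each of the 10 genes, and chance alone marks about 1 in 20 such groups.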

How the results depend on the processing

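The number of the 10 genes called was 0 in KO against WT MEFs, in KO against WT neurospheres and in the interaction under all alternatives run. It was 6 to 7 in WT neurospheres against WT MEFs and 7 to 8 in the KO lines. The gene lost in the WT lines was Fosb (3.57 with no filter, 3.61 with the replicate block at adjusted p = 0.0939, 3.12 without WT MEFs 2 and KO MEFs 3, 0.31 without Fosb-204, and 3.12 to 5.36 with each line left out, where the call was lost without WT MEFs 2, WT MEFs 3, WT neurospheres 2 or WT neurospheres 3). In the KO lines Fosb-204 decided Fosb (1.70 without it), and Jund had 1.37 with the replicate block (adjusted p = 0.0586). Same-numbered lines did not vary together (r of -0.54 to 0.18 between genotypes and -0.08 to 0.03 between cell types). The highest r between any lines compared was 0.71, for WT MEFs 2 and KO MEFs 3, the lines left out together above. What those lines share was not tested. These values cannot tell whether MEF and neurosphere lines share embryos, and the labels do not say so. Pairing is thus unknown, and the main fits used none. Over all genes, the calls in KO against WT neurospheres were 1 by edgeR, 7 by DESeq2, 2 with no filter and 0 without WT neurospheres 1 and KO neurospheres 2. In MEFs they were 1, but 0 with the replicate block and 3 without WT MEFs 2 and KO MEFs 3. In the interaction they were 0, and 3 by DESeq2. In KO neurospheres against KO MEFs they were 5892, and 3295 with the replicate block. With a prior count of 0.5 in place of 2, the spread between lines was 1.32 for Fosb and 0.96 for Fosl1.

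Log2 differences that changed sign were all uncalled. In KO against WT MEFs, Klf6 was -0.085 with the replicate block and -0.010 without WT MEFs 2 and KO MEFs 3, and Fosl1 was -0.086 with the block. Jun was 0.0043 (DESeq2), 0.0036 (DESeq2-type size factors), 0.0071 (no filter) and 0.0015 (TPM), and Jund 0.00054, 0.0024 and 0.0053 under the same first 3 and 0.034 without WT MEFs 2 and KO MEFs 3, where Junb was -0.17. In KO against WT neurospheres, without WT neurospheres 1 and KO neurospheres 2, Klf6 was -0.058, Jun 0.048, Junb -0.053 and Jund -0.37, and Jun was 0.0017 with the block. In the interaction Jun was 0.10 with the block and 0.00012 without WT MEFs 2 and KO MEFs 3. Between the cell types by TPM, Jun was -0.017 and Ier2 -0.20 in the WT lines and Jun -0.048 in the KO lines, and Ier2 was -0.0030 without WT MEFs 2.

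With each line left out, the ranges that crossed 0 in KO against WT MEFs were -0.11 to 0.84 (Fosl1), -0.17 to 0.27 (Jun), -0.21 to 0.47 (Junb), -0.071 to 0.082 (Jund) and -0.10 to 0.29 (Klf6). In KO against WT neurospheres they were -0.044 to 0.64 (Egr1), -0.046 to 0.88 (Fosb), -0.29 to 0.22 (Fosl2), -0.61 to 0.084 (Ier2), -0.30 to 0.34 (Jun) and -0.27 to 0.45 (Jund). In the interaction they were -0.83 to 1.41 (Fosb), -0.031 to 0.49 (Fosl2), -0.32 to 0.31 (Jun), -0.27 to 0.44 (Jund) and -0.073 to 0.33 (Klf6). Between the cell types they were -0.13 to 0.55 (Egr1), -0.030 to 0.65 (Ier2) and -0.24 to 0.38 (Jun) in the WT lines and -0.17 to 0.26 (Jun) in the KO lines. The cause of these changes was not tested.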
